A study of Mus musculus with 35 samples.

Results

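The results concern 8 genes that write, maintain or remove DNA methylation: the TET dioxygenases Tet1, Tet2 and Tet3, the DNA methyltransferases Dnmt1, Dnmt3a and Dnmt3b, the catalytically inactive family member Dnmt3l, and Uhrf1. They were chosen by name, with earlier results of these data known, and they are 8 of 21631 protein-coding genes on chromosomes 1 to 19 and X. For each gene, the peaks of all 22 lists that lie over the gene or within 50 kb to either side were collected, and this interval is called its locus. The 8 loci held 118 of the 106500 regions of acetylated histone H3 lysine 27 (H3K27ac) and 66 of the 37140 regions bound by the transcription factor KLF4.

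The series followed fibroblasts on their way to pluripotency, with KLF4 binding and enhancer organisation as its subject. Mouse embryonic fibroblasts (MEF) of the strain C57BL/6 x 129, with the genotype given as OKSM Col1a1/M2rtTA ROSA26, carried a polycistronic cassette of Oct4, Klf4, Sox2 and Myc that doxycycline switches on, so KLF4 at days 3 to 9 includes the transgene's product. MEF were taken unsorted from medium without doxycycline. The MEF input library, which was not used, is nevertheless listed with doxycycline and ascorbic acid. Cells of day 3, day 6 and day 9 were grown in embryonic stem cell (ESC) medium with doxycycline at 1 µg/ml and ascorbic acid at 50 µg/ml. Day 3 was unsorted, and days 6 and 9 were sorted for the surface antigen SSEA1. The reference was the single ESC line V6.5, on irradiated feeder cells in serum and LIF and unsorted, and for KLF4 also the same line in 2i, that is with 1 µM of a MEK inhibitor and 3 µM of a GSK3 inhibitor. The ESC thus differ from the reprogramming cells in genotype, in sorting and in doxycycline and ascorbic acid as well as in cell state, and these cannot be told apart. H3K27ac was mapped in 12 libraries: 2 of MEF, 3 of day 3, 3 of day 6, 2 of day 9 and 2 of ESC. KLF4 was mapped in 10: 2 each of day 3, day 6, day 9, serum ESC and 2i ESC, and no KLF4 library of MEF was analysed here.

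Methylation of cytosine in CG dinucleotides is laid down by DNMT3A and DNMT3B, for which DNMT3L is a cofactor in germ cells and early embryonic cells, and is copied at replication by DNMT1, which UHRF1 brings to hemimethylated DNA. TET enzymes oxidise 5-methylcytosine as a step towards its removal, and they need iron and 2-oxoglutarate. Ascorbic acid raises their activity and was part of the reprogramming medium, and Tet1 and Tet2 are known as highly expressed in pluripotent cells. H3K27ac marks active promoters and enhancers.

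Sequences of the promoters on which the results below turn are given first. Each is read 5′ to 3′ on the gene's strand from 250 bases before to 50 bases after a transcription start, from RefSeq (GRCm38.p6, whose primary chromosomes are those of mm10). Capitals mark matches to 3 KLF-type motifs searched on both strands, GGGTGTGG, GGGCGTGG and GGGTGGGG, or their reverse complements. The motifs have the same length and different letters, so that no stretch of 8 bases is counted under more than 1 of them. They were found in 3.64%, 7.04% and 11.1% of 21045 promoters of this length, and any of the 3 in 19.8%. The first is Tet1 (chr10:62887275-62887574, minus strand), which gained a broad acetylated region in ESC.
Tet1: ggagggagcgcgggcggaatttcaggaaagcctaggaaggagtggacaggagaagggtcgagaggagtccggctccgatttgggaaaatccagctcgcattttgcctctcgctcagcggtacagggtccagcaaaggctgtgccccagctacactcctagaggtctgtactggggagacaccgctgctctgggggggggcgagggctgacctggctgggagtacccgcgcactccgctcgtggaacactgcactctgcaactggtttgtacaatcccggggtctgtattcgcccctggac
The second is Tet2 (chr3:133544341-133544640, minus strand), which was acetylated in all 12 libraries.
Tet2: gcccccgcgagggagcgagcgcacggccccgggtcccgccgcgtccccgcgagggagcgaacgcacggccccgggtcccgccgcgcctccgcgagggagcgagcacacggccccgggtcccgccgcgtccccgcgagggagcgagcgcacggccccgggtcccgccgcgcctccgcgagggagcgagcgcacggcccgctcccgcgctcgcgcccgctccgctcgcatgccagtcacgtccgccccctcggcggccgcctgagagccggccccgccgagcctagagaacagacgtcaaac
The third is the internal start of Tet3 (chr6:83441629-83441928, minus strand), which had no H3K27ac peak in ESC.
Tet3: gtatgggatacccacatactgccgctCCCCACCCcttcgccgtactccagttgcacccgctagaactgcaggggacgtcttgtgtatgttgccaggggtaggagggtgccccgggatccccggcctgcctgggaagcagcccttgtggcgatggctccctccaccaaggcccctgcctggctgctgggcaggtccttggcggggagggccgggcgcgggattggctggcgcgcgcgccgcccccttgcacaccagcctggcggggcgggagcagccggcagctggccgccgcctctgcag
The fourth is the middle of 3 starts of Dnmt3l (chr10:78049592-78049891, plus strand), which was acetylated in ESC libraries and no others.
Dnmt3l: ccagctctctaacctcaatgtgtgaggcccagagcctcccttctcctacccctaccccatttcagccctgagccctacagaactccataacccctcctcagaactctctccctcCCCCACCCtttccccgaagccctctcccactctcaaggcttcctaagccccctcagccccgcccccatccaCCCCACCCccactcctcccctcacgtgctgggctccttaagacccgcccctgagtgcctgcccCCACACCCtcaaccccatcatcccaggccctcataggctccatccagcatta
The fifth is the first start of Uhrf1 (chr17:56303087-56303386, plus strand), where all 10 KLF4 libraries had a peak.
Uhrf1: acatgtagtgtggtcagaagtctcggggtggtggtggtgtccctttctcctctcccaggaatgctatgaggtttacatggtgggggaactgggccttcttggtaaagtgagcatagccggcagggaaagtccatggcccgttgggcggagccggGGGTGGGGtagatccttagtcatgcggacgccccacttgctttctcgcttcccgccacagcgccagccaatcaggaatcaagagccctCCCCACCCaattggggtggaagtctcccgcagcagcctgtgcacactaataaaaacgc

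The 5 windows differ in CG content, which is counted because CG is the substrate of the enzymes. The median promoter held 13.0 CG dinucleotides. Tet2 held 57, at the 99.8th percentile of all promoters, with none of the motifs. Tet1 held 17 (56.9th percentile), also with none. The Dnmt3l window held 4 CG and 3 motif matches, the Uhrf1 window 12 CG and 2 matches, and the Tet3 window 22 CG and 1 match. Of the windows not shown, Dnmt3a had 46 and 47 CG at a pair of neighbouring starts with no match, and Dnmt3b had 30 CG with 1 match. A match describes the letters and not a binding site.

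The lists themselves differed in length, from 17493 to 88347 peaks and 9.21 to 83.5 Mb for H3K27ac and from 21129 to 34640 peaks and 4.45 to 15.2 Mb for KLF4. Depth is unknown, and day 6 had the shortest H3K27ac lists. The cell labels were checked with H3K27ac at the starts of marker genes. Of 5 fibroblast genes, every MEF library had a peak at 5, and the count was 4 for day 3, 2 for day 6, 3 for day 9 and 1 for ESC. Of 6 pluripotency genes, the count was 0 for MEF, 1 for day 3, 0 for day 6, 5 for day 9 and 6 for ESC. The cell populations were measured in bulk, so that fewer cells with a mark and less of the mark per cell cannot be told apart, and the part of the feeder cells in the ESC lists was not tested.

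Acetylation of the loci was measured as a share: the base pairs of a locus under peaks per 1000000 base pairs under all peaks of the list (ppm), which puts lists of different length on 1 scale. Over the 12 libraries, the fitted slope on stage order, from MEF through days 3, 6 and 9 to ESC, was positive and passed the test for 4 loci (Tet1, Tet2, Dnmt3l and Uhrf1), and negative for 0. None of the 4 rose at every step. Tet1 had a lower mean at day 9 than at day 6 and Tet2 was level from day 3 to day 6, while Uhrf1 had means of 174, 171, 153, 188 and 405 ppm and Dnmt3l of 20.8, 12.1, 33.9, 38.9 and 247. By share Tet3 and Dnmt3a were highest at day 6 and lowest in ESC, whereas by covered length, in kb of the locus under peaks, both were lowest at day 6 (3.77 and 3.64 kb, against 6.15 and 7.40 kb in ESC). Dnmt3b was low until day 9 and high in ESC, and Dnmt1 passed neither test. By an exact permutation test of the variance between stages (F), with Benjamini-Hochberg adjustment over 19778 genes and a threshold of 0.05, 7 of the 8 loci differed between stages, where 78.8% of all genes did. By a two-sided exact permutation test of the slope on stage order, 4 of 8 had a rising slope, where 15.3% of all genes did, and 0 of 8 a falling slope, where 6.92% did. The median slope was 41.2 ppm per stage for the 8 loci and 2.65 for all genes. The labels name biological replicates without saying whether they came from separate animals or cultures, so the p-values measure the spread between these samples.

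**Figure D1:**
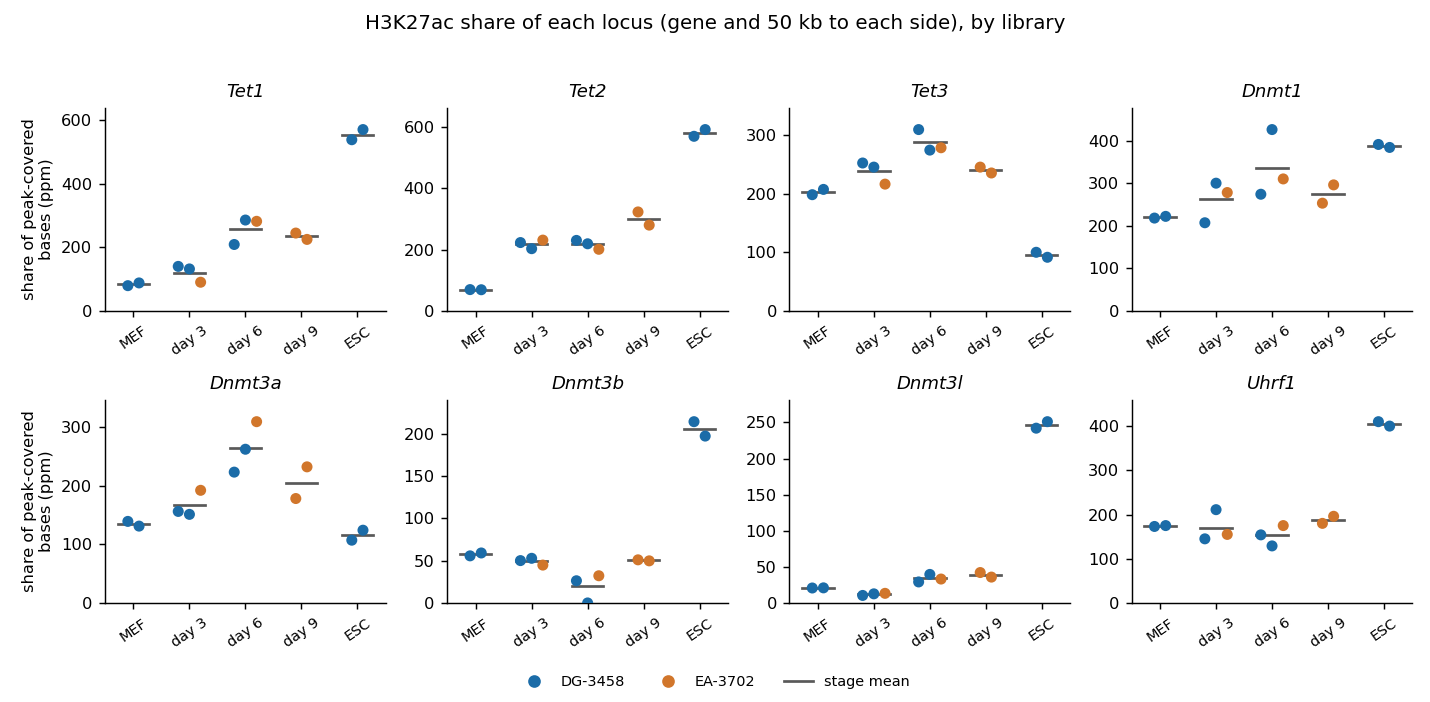
H3K27ac share of each of the 8 loci (vertical axis, ppm of the list's covered length) by stage, with 1 point per library and a bar at the stage mean. Tet1, Tet2, Dnmt3l and Uhrf1 stand highest in ESC, and the shares of Tet3 and Dnmt3a stand lower in ESC than at day 6, where the lists were shortest.

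Tet1 encodes the TET enzyme that is best known from pluripotent cells. Its share was 79.3 and 87.9 ppm in MEF, 140, 132 and 90.1 at day 3, 209, 286 and 282 at day 6, 245 and 225 at day 9, and 539 and 571 in ESC. The groups of MEF and day 3 did not overlap those of day 6 and later, and both ESC libraries lay above every other. The ESC mean (555 ± 22.3, SD, n = 2) was 2.36-fold that of day 9 (235 ± 14.6, n = 2). The higher share at day 6 went with a shorter covered length, which was 6.95 kb in MEF, 3.49 kb at day 6 and 35.6 kb in ESC, and peaks at the starts of the neighbours Ccar1 and Slc25a16 are part of the locus. Over the gene and 2.5 kb to each side the share was 37.0 ± 7.43 ppm (n = 2) in MEF, 60.3 ± 66.8 (n = 3, from 19.4 to 137) at day 6, which overlapped MEF, and 191 ± 17.5 (n = 2) in ESC. The slope of 107 ppm per stage lay at the 99.3rd percentile of all genes (exact permutation test, adjusted p = 0.00149), and the variance between stages passed too (F = 85.6, adjusted p = 0.00154). By number of peaks the slope did not pass the exact test (adjusted p = 0.0665).

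Most of the ESC signal at Tet1 was 1 region of 20787 bp that starts in the gene and runs upstream of it (chr10:62882913-62903699). In ESC its peak at the start was 19714 and 19776 bp wide, with the authors' fold enrichment at 34.9 and 33.0 and a place in the top 0.831% and 0.691% of the lists by score. At day 9 the peaks at the start were 1986 and 1749 bp wide with folds of 5.17 and 7.63. The start had a peak in 1 of 2 MEF libraries (fold 4.06), 0 of 3 of day 3 and 2 of 3 of day 6. Further upstream, chr10:62903772-62905347 and chr10:62905479-62908943 had peaks in ESC alone, with folds of 10.2 and 8.06 and of 11.5 and 9.58. In the other direction, chr10:62854830-62855103 and chr10:62864908-62866231 within the gene had peaks in both MEF libraries and neither ESC library, and the latter also at days 3 and 9.

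Tet2 encodes a TET enzyme without a CXXC domain of its own. Its share was 69.4 and 68.9 ppm in MEF, 223, 203 and 231 at day 3, 230, 219 and 201 at day 6, 323 and 280 at day 9, and 570 and 592 in ESC. The MEF libraries lay below all others, days 3 and 6 overlapped, and day 9 and then ESC lay above them without overlap. From MEF to day 3 the mean went from 69.2 ± 0.368 (SD, n = 2) to 219 ± 14.7 (n = 3), which is 3.16-fold, and ESC stood 8.40-fold above MEF. The covered length from MEF to ESC was 5.75, 6.83, 2.82, 14.8 and 37.3 kb, so that on this scale day 6 was lowest. The day 3 libraries held 4.82 to 8.87 kb, which overlapped MEF. The slope was 108 ppm per stage (exact permutation test, adjusted p = 0.000760, 99.3rd percentile), and F was 259 (adjusted p = 0.000823). The slope by number of peaks did not pass (exact test, adjusted p = 0.0583). No other protein-coding gene overlaps the Tet2 locus.

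The Tet2 start had an H3K27ac peak in every library, and the longest region present in ESC and absent in MEF lay inside the gene. The region over the start (chr3:133529501-133545888) had peaks in all 12 libraries, and the peak at the start had folds of 30.8 and 33.5 in MEF against 14.6 and 13.1 in ESC. By score the peak at the start stood in the top 3.66% and 2.91% of the MEF lists and 4.40% and 4.75% of the ESC lists. The highest ESC peaks of the region had folds of 34.1 and 25.6. A region of 14747 bp, whose near edge is 15.9 kb from the start (chr3:133513747-133528493), had no peak in MEF. It had peaks with folds of 4.66, 4.88 and 3.56 at day 3, 3.49 and 3.40 in 2 of 3 libraries of day 6, 13.1 and 13.7 at day 9, and 25.1 and 17.5 in ESC. A second such region at chr3:133505709-133507803 had folds of 6.02 and 4.17 at day 9 and 7.51 and 4.64 in ESC. A pair of small regions more than 50 kb into the gene, chr3:133490195-133490969 and chr3:133491142-133491887, had peaks in both MEF libraries and neither ESC library.

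**Figure D2:**
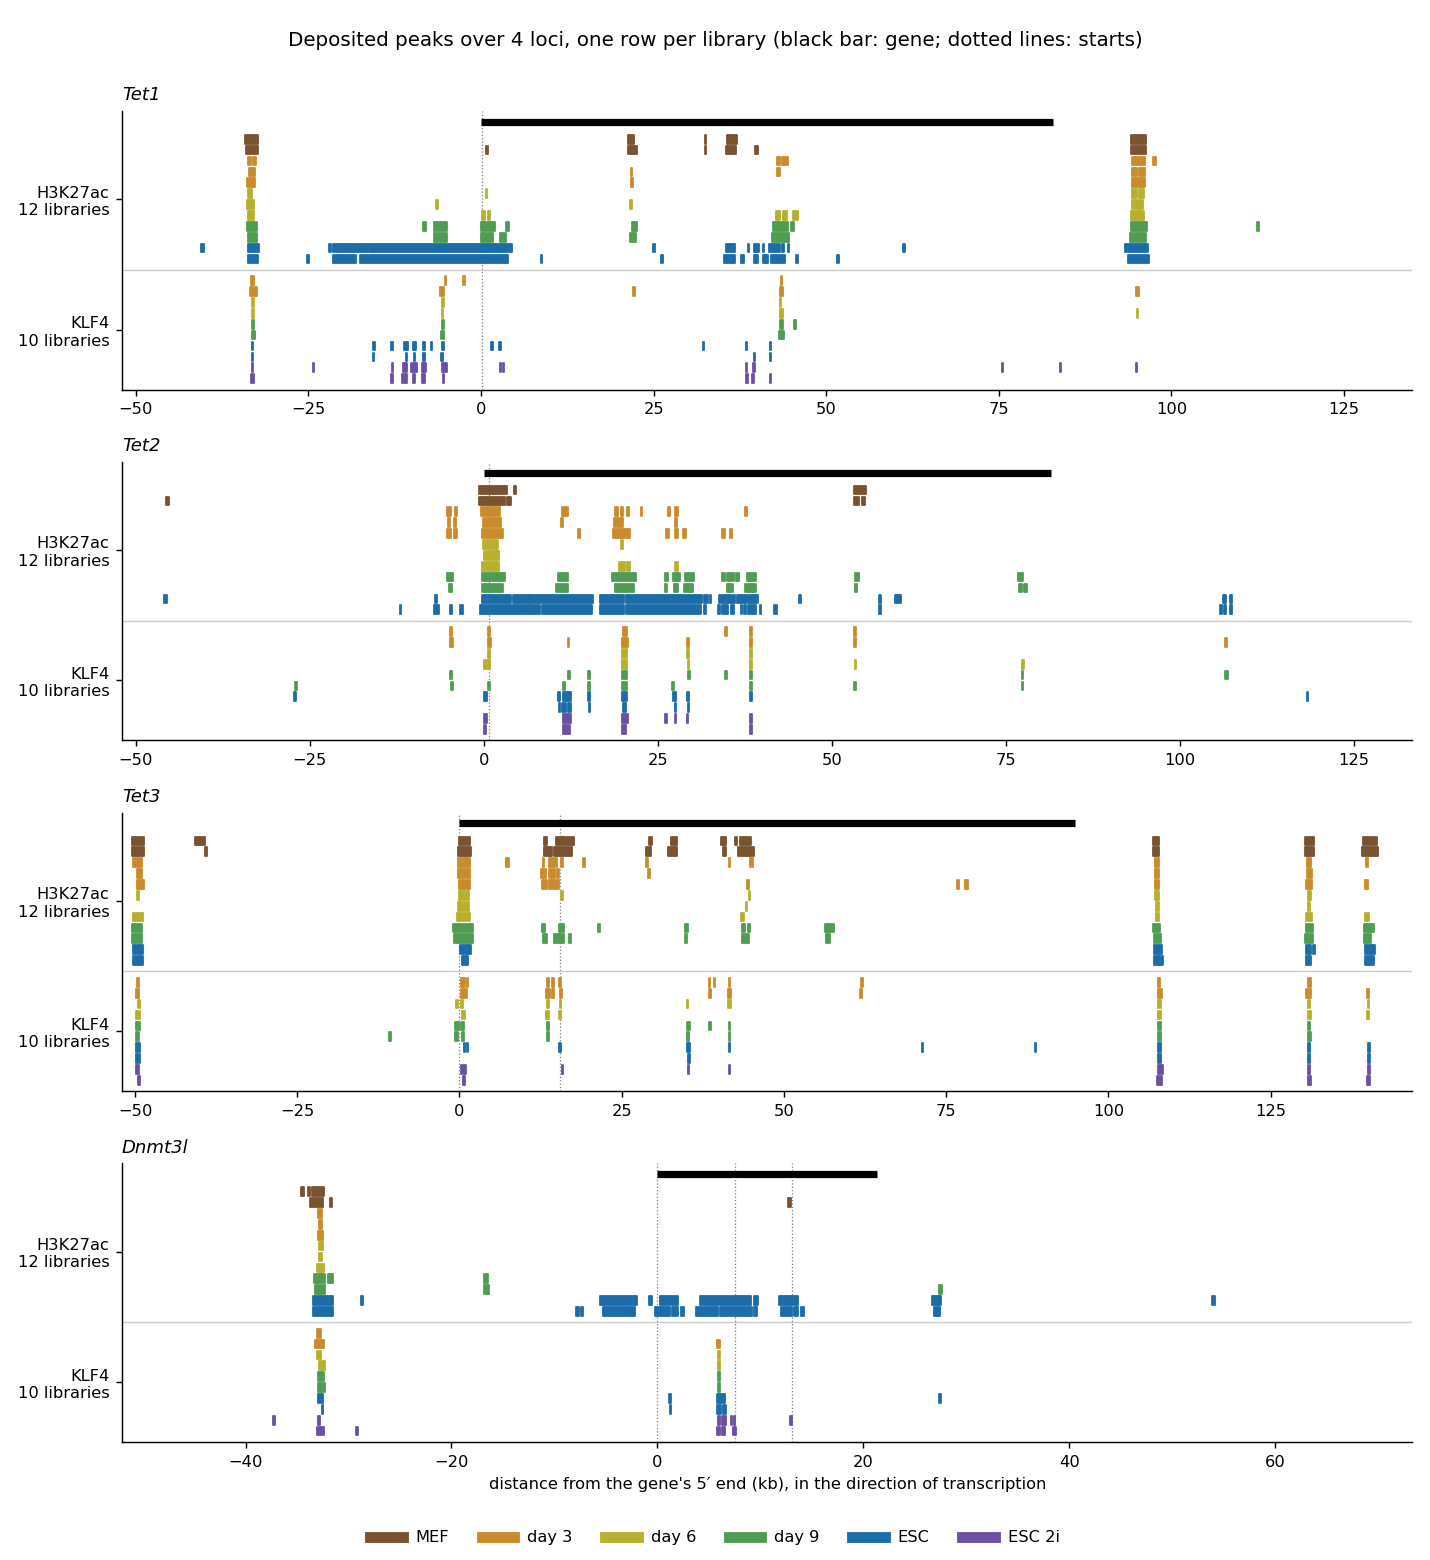
H3K27ac and KLF4 peaks of every library (1 row each, grouped by stage) over Tet1, Tet2, Tet3 and Dnmt3l, plotted by distance in kb from the gene's 5′ end. The broad ESC peaks upstream of Tet1 and inside Tet2, the loss of peaks inside Tet3 in ESC, and the ESC-only peaks of Dnmt3l are seen as blocks in the ESC rows.

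Tet3, the TET gene best known from the oocyte and from differentiated cells, had its lowest share in ESC. Its share was 198 and 207 ppm in MEF, 252, 245 and 216 at day 3, 309, 274 and 278 at day 6, 245 and 235 at day 9, and 99.8 and 91.3 in ESC. Both ESC libraries lay below every other, and the 3 of day 6 above every other. The MEF mean (203 ± 6.24, SD, n = 2) was 2.12 times the ESC mean (95.5 ± 6.01, n = 2). Over the gene and 2.5 kb to each side, without the starts of its neighbours, the share was 120 ± 13.1 ppm (n = 2) in MEF and 20.2 ± 4.91 (n = 2) in ESC. The covered length from MEF to ESC was 16.9, 7.27, 3.77, 11.8 and 6.15 kb, so that on this scale day 6 was lowest. Stages differed (F = 51.9, exact permutation test, adjusted p = 0.00142), and the slope of -21.1 ppm per stage did not pass (adjusted p = 0.300).

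The tables list 2 starts for Tet3, and they differed. At the gene's 5′ end (chr6:83455107-83458148) all 12 libraries had a peak. Its folds were 11.9 and 11.6 in MEF, 37.4 and 41.3 at day 9, where the peaks stood in the top 1.02% and 0.804% of their lists, and 10.4 and 13.3 in ESC. At the internal start 15.5 kb into the gene (chr6:83439593-83444665), the folds were 13.0 and 9.12 in MEF, 3.66, 4.88 and 4.55 at day 3, 2.44 in 1 of 3 libraries of day 6, and 3.88 and 5.90 at day 9, with no peak in ESC. Another region inside the gene (chr6:83411873-83414320) fell into the same class, with folds of 15.1 and 14.3 in MEF, peaks at days 3, 6 and 9, and none in ESC. The Tet3 locus had 5 regions present in MEF and absent in ESC and 0 of the converse.

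Dnmt1 encodes the maintenance methyltransferase. Its share was 218 and 222 ppm in MEF, 207, 300 and 278 at day 3, 274, 426 and 310 at day 6, 253 and 296 at day 9, and 391 and 384 in ESC. Stages overlapped, with 1 day 6 library above both ESC libraries, and ESC stood 1.76-fold above MEF. Neither F (3.60, exact permutation test, adjusted p = 0.0865) nor the slope (34.8 ppm per stage, adjusted p = 0.0591) passed. Without that library, replicate 2 of day 6 in batch DG-3458, both passed by the same exact test (adjusted p = 0.0353 for F and 0.0187 for the slope), and the slope alone also passed without replicate 1 of day 9 (0.0415). By covered length the stages of the Dnmt1 locus did differ, as given in the closing section. Its means on that scale were 18.3, 8.04, 4.33, 13.5 and 24.9 kb from MEF to ESC, with day 6 lowest. Of its 3 listed starts, those at positions 20952623 and 20952979 lie in or within 1 kb of chr9:20950588-20952970, which had peaks in all 12 libraries, with folds of 11.5 and 14.0 in MEF, 2.79, 2.62 and 3.02 at day 6, and 16.0 and 18.0 in ESC. The start farthest upstream, at position 20959888, had no peak of either mark.

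Around Dnmt1, 9 of 20 regions were present in ESC and absent in MEF, and 0 the converse. A narrow one lies beside the start (chr9:20953094-20953512, folds 3.47 and 2.79). Those with the highest ranks lie 30.6 and 31.2 kb upstream, chr9:20990441-20991046 with folds of 7.93 and 5.12 and chr9:20991138-20991808 with folds of 8.98 and 7.13. The neighbours Shfl, Angptl6, Ppan, Eif3g, S1pr2 and Mrpl4 lie within the locus, and its peaks were not assigned to a gene.

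Uhrf1 encodes the reader that recruits DNMT1. Its share was 173 and 175 ppm in MEF, 145, 211 and 155 at day 3, 154, 129 and 175 at day 6, 180 and 196 at day 9, and 410 and 400 in ESC. Over this locus, which holds 5 other genes, the 10 libraries before ESC lay between 129 and 211 ppm, and ESC stood 2.15-fold above day 9. Over the gene and 2.5 kb to each side the means were 29.8, 17.9, 38.7, 57.3 and 154 ppm from MEF to ESC, and both libraries of day 9 lay above both of MEF. For the whole locus F was 44.3 (exact permutation test, adjusted p = 0.0322) and the slope 47.6 ppm per stage (adjusted p = 0.0426). Over the gene and 2.5 kb the slope was 29.3 ppm per stage (exact permutation test, adjusted p = 0.00999). Over the wide locus both calls were lost by number of peaks (0.0666 for F and 0.0907 for the slope in the exact test), and the slope by covered length (0.281), with the q-value limit (0.103) and from equal numbers of top peaks (0.121). They also rest on single libraries. In the exact test F no longer passed without replicate 1 or 2 of day 6 in batch DG-3458 (adjusted p = 0.0584 and 0.0676) or without either ESC library (0.0598 each). The slope was lost without any of 7 libraries: day 3 DG-3458 replicate 1 (0.0761) or 2 (0.0537), day 3 EA-3702 (0.0745), day 6 EA-3702 (0.0514), day 9 replicate 2 (0.0602), or ESC replicate 1 (0.157) or 2 (0.156).

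The Uhrf1 start region (chr17:56301842-56305625) was acetylated in all 12 libraries. Its folds were 10.1 and 12.3 in MEF, 4.40, 3.56 and 4.43 at day 3, 2.84, 3.03 and 6.99 at day 6, 20.7 and 20.6 at day 9, and 20.2 and 30.8 in ESC. Of 23 regions, 11 were present in ESC and absent in MEF. The highest by rank lie near the 3′ end of the gene, chr17:56321533-56323282 (folds 11.3 and 10.4) and chr17:56319061-56321427 (folds 6.36 and 8.32). Weak MEF regions absent in ESC were chr17:56255115-56255859, chr17:56275188-56275557 and chr17:56326872-56327299, with folds between 2.85 and 3.98.

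Dnmt3a encodes a de novo methyltransferase with transcripts from several starts. Its share was 139 and 131 ppm in MEF, 156, 151 and 192 at day 3, 223, 262 and 309 at day 6, 178 and 232 at day 9, and 107 and 124 in ESC. ESC lay below every other library and day 6 overlapped day 9. The stage means were 135 ± 6.13 (SD, n = 2) in MEF, 265 ± 42.7 (n = 3) at day 6 and 115 ± 11.8 (n = 2) in ESC. The covered length was 11.2, 3.64 and 7.40 kb in these stages, so that on this scale day 6 was lowest. Stages differed (F = 9.83, exact permutation test, adjusted p = 0.0110) without a slope (0.777 ppm per stage, adjusted p = 0.980). By number of peaks they did not pass (exact test, adjusted p = 0.233). A pair of start regions, chr12:3806501-3808570 and chr12:3890282-3892571, had peaks in all 12 libraries with folds of 3.49 to 11.8. Position 3801559, the gene record's 5′ end, had no peak of either mark.

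Other Dnmt3a regions differed between MEF and ESC. In MEF and not in ESC were chr12:3791866-3792558, 9.0 kb upstream (folds 8.87 and 8.28), chr12:3833247-3835053 (7.17 and 9.05) and chr12:3854854-3856736 (4.69 and 4.85), both inside the gene. In ESC and not in MEF were chr12:3870841-3872161 (4.04 and 3.79), also present at day 9, and chr12:3888963-3889840 (5.30 and 5.36), 1.9 kb from a listed start.

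Dnmt3b encodes the de novo enzyme of early embryonic cells. Its share was 55.6 and 59.0 ppm in MEF, 50.0, 52.7 and 44.7 at day 3, 26.2, 0 and 32.1 at day 6, 50.9 and 49.7 at day 9, and 214 and 197 in ESC. ESC lay 4.08-fold above day 9 with no overlap, and 1 day 6 library listed no peak in the locus. Stages differed (F = 107, exact permutation test, adjusted p = 0.00262), and the slope did not pass (29.4 ppm per stage, adjusted p = 0.0802). The excess in ESC came from outside the gene and its near flanks. Counting only the gene and 2.5 kb to each side, the stage means were 11.4, 16.7, 19.4, 25.0 and 19.4 ppm from MEF to ESC, and the exact test did not pass (adjusted p = 0.742).

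The Dnmt3b start region (chr2:153648996-153650512) had folds of 6.45 and 6.21 in MEF and 7.64 and 6.90 in ESC. All 10 regions of the locus that were in ESC and not in MEF lay upstream, led by chr2:153621360-153622411 (folds 7.36 and 5.77) and chr2:153599996-153600991 (4.06 and 6.08). Between them, 35.3 kb upstream, chr2:153608886-153614170 was picked out after its values were seen. Its folds were 11.6 and 9.80 in MEF, 3.99, 3.90 and 3.12 at day 3, 2.22 and 2.26 at day 9, and 22.8 and 20.9 in ESC, with no peak at day 6. The neighbour Commd7 lies on this side of Dnmt3b.

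Dnmt3l showed the sharpest contrast. Its share was 20.7 and 20.9 ppm in MEF, 10.4, 12.6 and 13.3 at day 3, 29.1, 39.5 and 33.1 at day 6, 42.1 and 35.8 at day 9, and 242 and 251 in ESC. ESC lay 6.33-fold above day 9 and 11.9-fold above MEF, with no library between 42.1 and 242 ppm. F was 1140 (exact permutation test, adjusted p = 0.000843) and the slope 48.1 ppm per stage (adjusted p = 0.00284). Within the gene and 2.5 kb to each side the means were 0 at days 3, 6 and 9 and 152 ± 9.78 ppm (SD, n = 2) in ESC, with 1 small peak in 1 MEF library, and counted so the slope did not pass (exact permutation test, adjusted p = 0.0791), nor did it by covered length (0.0605).

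All 3 listed starts of Dnmt3l had peaks in both ESC libraries. The region over the middle one, whose sequence is given above (chr10:78046024-78051521), had folds of 16.9 and 17.6, and 1 upstream of the gene (chr10:78036687-78040348) had 16.3 and 14.5. The first start (chr10:78042456-78043555) had folds of 3.10 and 3.21. At the last start chr10:78055540-78055990 had 4.04 and 5.49, and chr10:78054096-78055448 had 4.70 and 5.36 in ESC and 2.43 in 1 MEF library. Pfkl, Aire and Icosl neighbour the gene.

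Codes in the sample titles were taken as batches, which the titles do not call them, and they overlap the stages: MEF and ESC H3K27ac libraries are all of DG-3458 and day 9 libraries all of EA-3702. By the exact test with labels permuted within batches, 7 loci again differed between stages and 3 had a rising slope, Tet1 (adjusted p = 0.00681), Tet2 (0.00779) and Dnmt3l (0.0132), while Uhrf1 did not (0.105). Within DG-3458 alone, without day 9, the exact test of F passed for 6 loci and the slope for Tet1 (121 ppm per stage, adjusted p = 0.0136) and Tet2 (124, adjusted p = 0.0198). There Uhrf1 passed neither exact test (adjusted p = 0.104 and 0.120), and the slope of Dnmt3l had an adjusted p of 0.0502.

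Each H3K27ac region was then classed by stage, as present where at least 2 libraries overlapped it and absent where none did. Of the 118 regions, 53 (44.9%) were in ESC and not MEF, where 29.6% of all regions were. MEF and not ESC held 15 (12.7%), against 39.4% of all regions. Peaks of every library met in 17 (14.4%), against 7.74%. The ESC class was spread over the loci unevenly: 11 at Uhrf1, 10 each at Tet2 and Dnmt3b, 9 at Dnmt1, 7 at Dnmt3l, 4 at Tet1, 2 at Dnmt3a and 0 at Tet3. Of these 53, 29 lay upstream of the gene, 20 within it and 4 downstream, and 11 of the 15 MEF regions and 51 of all 118 lay within the gene. Of the 17 regions found in every library, 8 were within 1 kb of the start of another gene, as were 22 of all 118. Leaving out 1 of the 2 libraries of MEF or ESC left presence and absence in that stage to the other alone, which is a looser rule. Under that rule there were 26 MEF regions without replicate 2 of MEF, and 95 and 90 ESC regions without ESC replicate 1 and 2. With peaks limited to a q-value of at most 0.01 the ESC class numbered 33 and that of every library 10, and from equal numbers of top peaks the ESC, MEF and every-library classes numbered 10, 7 and 10.

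**Figure D3:**
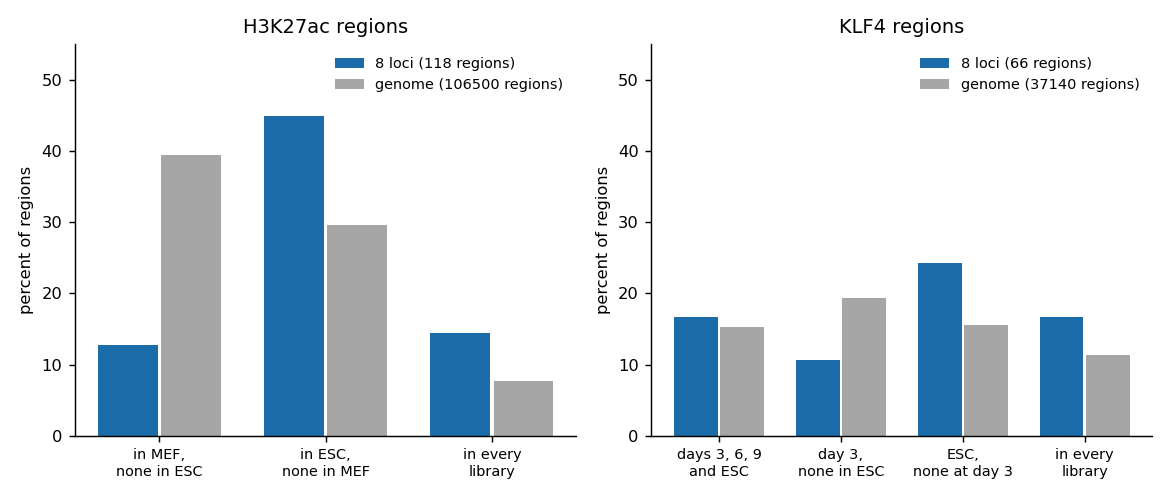
Percent of H3K27ac regions (left) and KLF4 regions (right) in each class, at the 8 loci (blue) and over the genome (grey). In H3K27ac the 8 loci hold 44.9% regions of ESC and not MEF against 29.6% over the genome, and 12.7% of MEF and not ESC against 39.4%.

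At the starts themselves most of the 8 genes had a peak from MEF on. An H3K27ac peak within 1 kb of a listed start was present in every MEF library for 6 of 8 genes (58.1% of 17274 genes with a listed start), in every library of day 3 for 6 (47.2%), of day 6 for 5 (41.0%), of day 9 for 7 (56.5%) and of ESC for 8 (57.2%). In all 12 libraries 5 genes had one (38.2% of all): Tet2, Tet3, Dnmt1, Dnmt3a and Uhrf1. With the q-value limit this count was 3 and from top peaks 2. The exceptions were Dnmt3l, Tet1 and Dnmt3b, whose start was missed in 1 library of day 6.

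**Figure D4:**
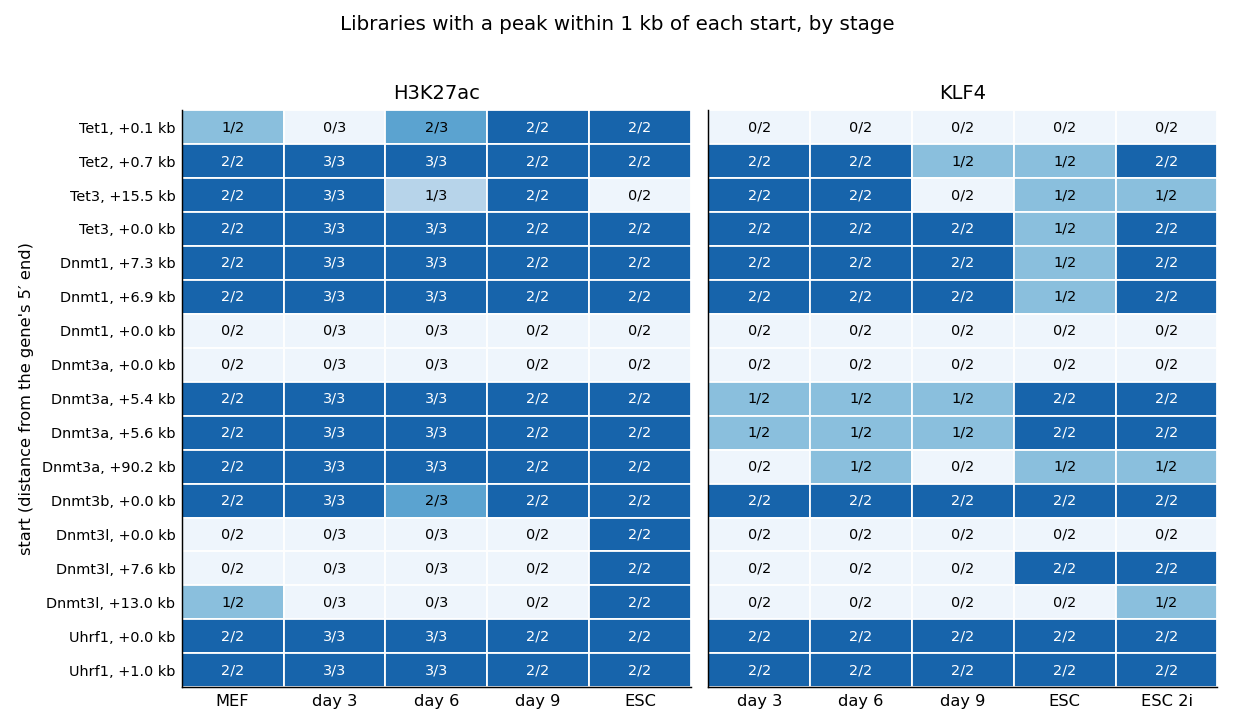
Libraries with a peak within 1 kb of each listed start (rows, named by gene and distance in kb from its 5′ end) over the libraries of each stage (columns), for H3K27ac and KLF4, with darker fill for a larger share. Both Uhrf1 starts are filled in every stage of both marks, the 3 Dnmt3l starts have H3K27ac peaks in 2 of 2 ESC libraries, and the Tet1 start has no KLF4 peak in any of the 10 libraries.

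KLF4 shares were measured the same way, and no locus passed an adjusted test. Of 18861 genes tested, 0% passed by F and 0% by slope at an adjusted p of 0.05, and 0 of the 8 loci did. By an exact permutation test the smallest p was 0.00106 for F over 10 libraries and 0.000794 for the slope over the 8 libraries without 2i. At an unadjusted p of 0.05, 3 of 8 differed between stages (25.9% of all genes), and the same 3, Tet1, Tet2 and Dnmt3l, had a rising slope (11.3% of all genes) and 0 a falling slope (8.13%). The median slope was 22.8 ppm per stage over the 8 loci and 2.28 over all genes.

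**Figure D5:**
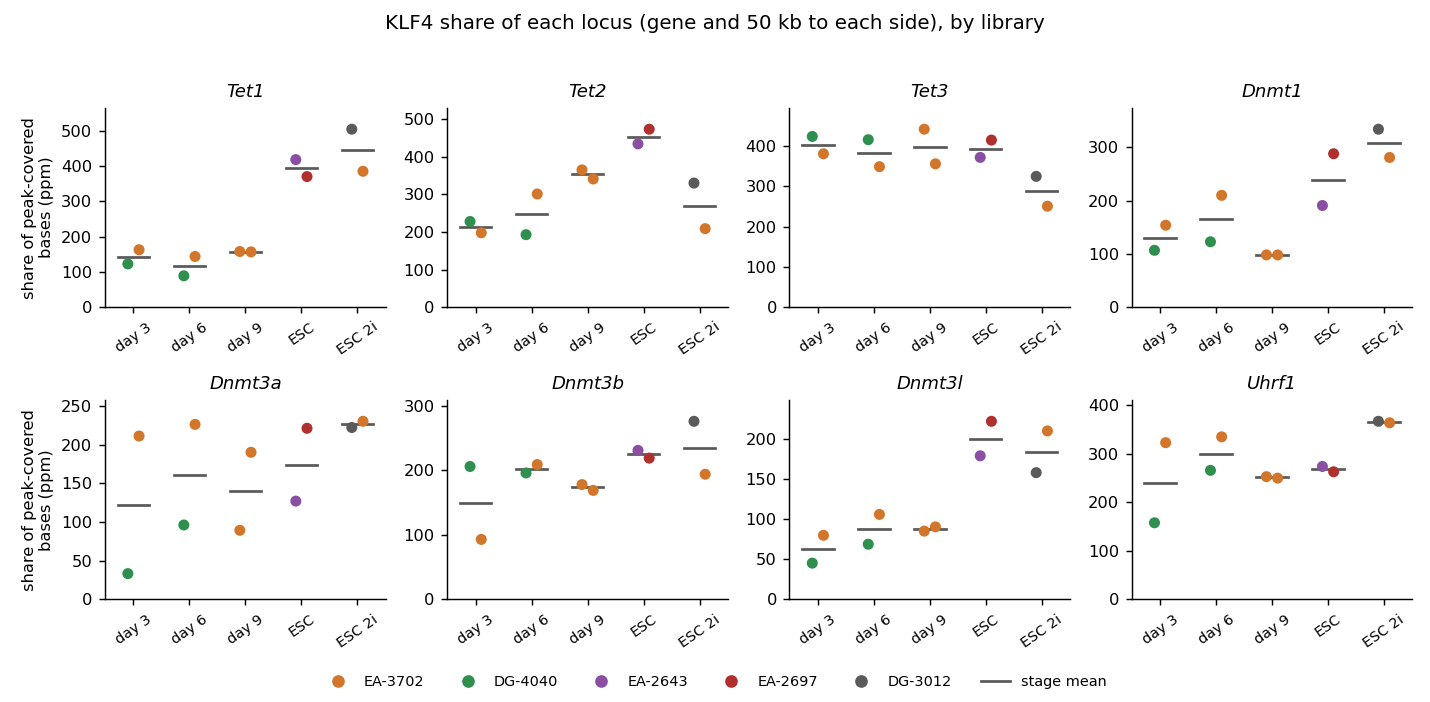
KLF4 share of each of the 8 loci (ppm of the list's covered length) by stage, with 1 point per library and a bar at the stage mean. The serum ESC libraries lie above days 3 to 9 at Tet1, Tet2 and Dnmt3l, and by a smaller margin at Dnmt3b (219 and 231 ppm, against at most 209).

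The Tet1 locus had KLF4 shares of 123 and 163 ppm at day 3, 89.3 and 144 at day 6, 158 and 157 at day 9, 418 and 370 in serum ESC and 504 and 385 in 2i. Both kinds of ESC lay above all 6 reprogramming libraries, and serum ESC stood 2.76-fold above day 3 (slope 79.5 ppm per stage, exact permutation p = 0.0246, adjusted p = 0.188). Counted within 2.5 kb of the gene, the serum ESC share (65.8 and 106 ppm) overlapped that of day 9 (65.1 and 75.8). Of the KLF4 regions upstream of the gene, 6 sat inside the broad acetylated region. Absent at day 3 and present in serum ESC were 5 regions, the highest by rank being chr10:62896761-62897672 (folds 4.54 and 6.40) and chr10:62898031-62898933 (4.47 and 5.11). The reverse was seen at chr10:62843656-62844265 within the gene, which had folds of 2.91 and 4.14 at day 3, 2.21 and 4.68 at day 6, 4.65 and 6.32 at day 9, and no peak in ESC. The one region kept from day 3 to ESC (chr10:62919989-62920891) is within 1 kb of the start of Slc25a16.

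The Tet2 locus had 228 and 198 ppm at day 3, 193 and 301 at day 6, 365 and 341 at day 9, 434 and 473 in serum ESC, and 330 and 209 in 2i. Serum ESC lay above the other 8 libraries, and the 2i mean was 0.594 of the serum mean, a comparison of 2 against 2 libraries that was not tested on its own. The slope to serum ESC was 82.8 ppm per stage (exact permutation p = 0.00238, adjusted p = 0.0836). Inside the ESC-acetylated part of the gene, chr3:133524441-133525348 was bound in all 10 libraries and had its highest folds at day 9 (20.8 and 22.5, against 5.15 and 10.1 at day 3 and 5.19 and 3.84 in serum ESC). At chr3:133533181-133533850 no day 3 library had a peak and serum ESC had folds of 7.44 and 15.4 and stood in the top 1.30% and 0.497% of the lists by score. A second late region was chr3:133517476-133517723. The start region (chr3:133544136-133545135) was bound in 8 of 10 libraries, 1 of 2 at day 9 and in serum ESC. Day 3 regions absent in ESC were chr3:133491648-133491982 and chr3:133549578-133550013.

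Tet3 had the highest KLF4 share of the 8 loci at day 3, with 424 and 381 ppm. It had 416 and 349 at day 6, 442 and 356 at day 9, 372 and 415 in serum ESC and 325 and 251 in 2i, so that serum stages overlapped throughout (slope -1.10 ppm per stage, exact permutation p = 0.929). Over the gene and 2.5 kb to each side the means were 253, 178, 212, 120 and 75.9 ppm from day 3 to 2i, and both serum ESC libraries lay below both of day 3 (slope -36.6 ppm per stage, exact permutation p = 0.106). Individual regions had listed peaks in some stages and not in others, which was not tested. Near the internal start, chr6:83442675-83443013 was bound at day 3 alone (3.73 and 4.61), and chr6:83443271-83443891 had folds of 3.86 and 8.29 at day 3, 4.01 and 4.33 at day 6, 4.68 and 3.32 at day 9 and no peak in ESC. The start itself (chr6:83441441-83441885) was bound in both libraries of days 3 and 6, none of day 9 and 1 of serum ESC. Further in, chr6:83418448-83418757 was bound at day 3 and not in ESC. At chr6:83421742-83422195 no day 3 library had a peak and 1 of 2 of day 6 had a weak one (fold 2.13, rank 98.4%). Both libraries of day 9 (8.66 and 6.06) and both of serum ESC had a peak there. At the 5′ end, chr6:83455932-83457035 had peaks in 9 of 10 libraries and chr6:83457314-83457850 in 1 of day 6 and both of day 9.

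The 3 Tet3 regions kept from day 3 to ESC lie outside the gene (chr6:83325987-83326755, chr6:83348878-83349656 and chr6:83506377-83507089), the nearest 49.2 kb from a Tet3 start. The genes Mob1a, Mthfd2, Bola3 and Dguok lie there.

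At Dnmt1 the KLF4 share was 107 and 154 ppm at day 3, 123 and 210 at day 6, 98.4 and 98.3 at day 9, 191 and 288 in serum ESC and 334 and 281 in 2i (F = 6.48, exact permutation p = 0.0529). Within the gene and 2.5 kb to each side the order differed, with means of 69.6, 58.3, 65.1 and 12.3 ppm from day 3 to serum ESC, where 1 library was at 0 and the other at 24.7, and 91.1 in 2i (slope to serum ESC -16.5 ppm per stage, exact permutation p = 0.0659). The start (chr9:20952151-20953166) was bound in 9 of 10 libraries with folds of 2.37 to 5.21. The 3 late regions all lay upstream: chr9:20975465-20975684, chr9:20978410-20978796 and chr9:20991015-20991166, the last touching both of the ESC acetylated regions named above.

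At Uhrf1 the shares were 158 and 323 ppm at day 3, 266 and 335 at day 6, 253 and 250 at day 9, 274 and 263 in serum ESC and 367 and 364 in 2i, with a slope of 3.41 ppm per stage (exact permutation p = 0.861). Both listed starts were bound in all 10 libraries, at chr17:56302961-56303611 and chr17:56303898-56304579, with folds of 2.55 to 7.75. The kept region chr17:56290312-56291579 is at the start of Plin3, and chr17:56287968-56288294 was late.

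At Dnmt3a the shares were 33.4 and 211 ppm at day 3, 96.2 and 226 at day 6, 89.3 and 190 at day 9, 127 and 221 in serum ESC and 222 and 230 in 2i. The lower of each pair at days 3 and 6 came from batch DG-4040, and the spread within a stage exceeded that between stages (F = 0.461, exact permutation p = 0.662). A single late region 5.4 kb upstream (chr12:3795484-3796150) had no peak at day 3. Its folds were 4.21 and 3.51 at day 6, 6.85 and 5.78 at day 9, 8.72 and 9.24 in serum ESC and 14.8 and 12.5 in 2i, and no H3K27ac region overlapped it. The regions at the starts, chr12:3806309-3806577 and chr12:3807599-3807961, had peaks in 5 and 6 of the 10 libraries, with folds of 1.89 to 4.60.

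At Dnmt3b the shares were 206 and 93.1 ppm at day 3, 196 and 209 at day 6, 178 and 169 at day 9, 231 and 219 in serum ESC and 276 and 194 in 2i (F = 1.29, exact permutation p = 0.399). KLF4 occupied the start in every library: chr2:153649854-153650461 had folds of 3.19 and 3.25 at day 3, 8.20 and 7.55 at day 9 and 5.09 and 6.23 in serum ESC, and chr2:153649239-153649739 was bound in 9 of 10. The other kept region, chr2:153632107-153632807, is at the start of Commd7.

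At Dnmt3l the shares were 45.3 and 80.0 ppm at day 3, 68.9 and 106 at day 6, 85.2 and 90.5 at day 9, 179 and 222 in serum ESC and 158 and 210 in 2i. ESC of both kinds lay above the 6 reprogramming libraries, with serum ESC 3.20-fold above day 3 (slope 41.4 ppm per stage, exact permutation p = 0.00952, adjusted p = 0.129). At chr10:78048061-78048938, 0.9 kb from the middle start, KLF4 had a peak in 1 of 2 libraries of day 3 and both of days 6 and 9, with folds of 2.70 to 3.61. These early peaks were weak, at ranks of 76.1% to 98.7% of their lists by score. In serum ESC the folds were 7.32 and 5.90, and the H3K27ac region around it had peaks in ESC alone. The start itself (chr10:78049614-78049917) was bound in both 2i libraries (folds 3.19 and 4.06) and no other. A late region lay at chr10:78043450-78043629, and the kept region chr10:78009061-78010028 is at the start of Pfkl.

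For KLF4 the batch and the stage cannot be told apart in part, since the serum ESC libraries form batches of their own (EA-2643 and EA-2697). With labels permuted within batches, the exact permutation p of the slope was 0.750 for Tet1, 0.0833 for Tet2 and 0.250 for Dnmt3l, where the smallest possible was 0.0417.

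Over the 66 KLF4 regions, 11 (16.7%) were kept from day 3 through days 6 and 9 to serum ESC (15.3% of all regions), and 11 (16.7%) were in all 10 libraries (11.3%). Present at day 3 and absent in serum ESC were 7 (10.6%), against 19.4% of all regions, and the converse, late regions, were 16 (24.2%), against 15.6%. Tet3 held 4 of the 7 transient regions, and Tet1 and Tet2 held 5 and 4 of the 16 late regions. Within 1 kb of the start of another gene lay 13 of the 66, of which 7 were kept regions. Leaving out 1 library left presence and absence in its stage to the other library alone, which is a looser rule. Under that rule transient regions numbered 21 without day 3 of batch DG-4040, 16 without day 3 of EA-3702 and 15 without serum ESC of EA-2643. Late regions numbered 38 without serum ESC of EA-2697. With peaks limited to a q-value of at most 0.01, kept regions numbered 3 and those in all 10 libraries 1, and with equal numbers of top peaks the latter numbered 6.

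KLF4 was within 1 kb of a listed start in every library of day 3 for 5 of 8 genes (27.2% of all genes), of day 6 for 5 (26.9%), of day 9 for 4 (29.4%), of serum ESC for 4 (28.2%), of 2i for 7 (31.7%), and in all 10 libraries for 2 (14.3%), Dnmt3b and Uhrf1. The count in all 10 was 4 without serum ESC of EA-2697, 0 with the q-value limit and 1 from top peaks. Tet1 was the gene with no KLF4 peak there in any library.

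KLF4 regions of these loci were mostly acetylated. Of the 66, 61 (92.4%) overlapped an H3K27ac region of any stage, where 77.8% of all KLF4 regions did. With the regions of both marks built from the libraries of 1 stage alone, the share was 20 of 28 at day 3 (71.4%, against 61.3% of all), 15 of 29 at day 6 (51.7%, against 47.1%), 28 of 33 at day 9 (84.8%, against 78.1%) and 34 of 37 in serum ESC (91.9%, against 72.7%). The low day 6 share goes with the shortest H3K27ac lists, and the part of list length was not tested. Of the 16 late KLF4 regions 15 overlapped an H3K27ac region, and of the 53 ESC acetylated regions 10 overlapped a KLF4 region, where 40 of the 118 H3K27ac regions of the loci (33.9%) and 25.6% of all H3K27ac regions did.

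Another 28 genes of the pathway, on lists of readers and maintenance partners, imprint and repeat silencing, demethylation and repair, and TET partners and cofactors, were counted the same way. Their values too cover the gene with 50 kb to each side, so that peaks of neighbouring genes can be part of them. By H3K27ac share 26 of 28 differed between stages by the adjusted exact permutation test (78.8% of all genes). On stage order 11 had a rising slope (15.3%) and 2 a falling one (6.92%), with a median slope of 13.8 ppm per stage. Rose and fell refer below to this slope and not to every step. Dppa3, for example, had means of 80.7, 196, 185, 164 and 296 ppm from MEF to ESC. In imprint and repeat silencing 4 of 6 rose: Zfp57, the zinc finger protein that binds methylated imprints, from a mean of 114 ppm in MEF to 1040 in ESC (slope 195), its corepressor Trim28 (74.8), the H3K9 methyltransferase Setdb1 (79.6) and Dppa3, which shields methylation in the early embryo (37.5). Of 9 readers and partners 3 rose, among them Usp7, the deubiquitinase that stabilises DNMT1 (180), and Hells (12.4), and Mbd2 fell (-35.2). Of 5 repair genes Smug1 rose (12.9).

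Of 8 TET partners and cofactors 3 rose and 1 fell. Idh2, which makes 2-oxoglutarate in mitochondria, went from 82.8 ppm in MEF to 577 in ESC (slope 117), and Kdm2b (81.9) and Ogt (22.1), a partner of TET proteins, rose as well. Slc23a2, a sodium-dependent ascorbate transporter, fell from 335 ppm in MEF to 38.1 in ESC (slope -64.6). The other such transporter, Slc23a1, had means of 97.0, 409, 412, 528 and 220 ppm from MEF to ESC and differed between stages (adjusted p = 0.00194, exact permutation test), and its slope did not pass. By KLF4 share 0 of the 28 passed an adjusted test (0% of all genes). At an unadjusted p of 0.05, 6 differed between stages (25.9% of all genes), 2 had a rising slope (11.3%) and 3 a falling one (8.13%), with a median slope of -1.98 ppm per stage.

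The genes whose H3K27ac share followed a member most closely were taken by Pearson correlation over the 12 libraries, which share list length and stage, among genes whose loci do not overlap the member's. For Tet1 they were Acss2 (r = 0.9918) and Ccs (0.9897), for Tet2 Glb1 (0.9860) and Mllt1 (0.9822), and for Tet3 Man1c1 (0.9797) and Capn8 (0.9739). For Dnmt1 the highest values were lower, Zfp637 (0.9481) and Lbr (0.9415), and for Dnmt3a they were Sgo1 (0.9765) and Mrpl3 (0.9629). Dnmt3b was followed by Caskin2 (0.9933) and Tsen54 (0.9918). Both lie on chromosome 11 with equal means at day 3 (96.8 ppm) and day 6 (68.7), and whether their loci share peaks was not tested. Dnmt3l was followed by A930007A09Rik (0.9971) and Etnk1 (0.9957), and Uhrf1 by H2-Q7 (0.9895), one of a family of near-identical genes, and Grid1 (0.9860). By share, Man1c1 was highest at day 6 and lowest in ESC like Tet3, with means of 354, 413, 466, 399 and 179 ppm from MEF to ESC.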

How the data were processed

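Per the labels' protocols, cells were crosslinked in formaldehyde, sonicated and immunoprecipitated for H3K27ac or KLF4, and the libraries were sequenced from single ends. The submitters' processing notes name cutadapt 1.8.1, Bowtie2 2.2.5, deepTools 2.3.6, MACS2 2.1.1 and the build mm10, without their settings or the control used. There is 1 deposited list for each library, and replicates were therefore not pooled when peaks were called. For every peak the authors give a score, a fold enrichment (a ratio) and the −log10 of its p- and q-values. These served to rank, filter or describe the peaks of each list. Folds of different lists are printed side by side, and they were neither scaled between lists nor tested. The lists hold no read counts, so the depth is unknown, no count test was possible, and a place without a peak is not a place without signal. The 13 input libraries were not used.

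Peaks on chromosomes 1 to 19 and X were intersected (1 bp or more) with gene coordinates of RefSeq's GRCm38.p6 table, which gives no exons, so regions are described as inside, upstream or downstream of a gene. Starts came from RefSeq's promoter table and, for the 5′ ends of Tet3 and Dnmt3a, from the gene record. A locus is the gene with 50 kb to each side, and genes with a peak in the locus in at least 2 libraries were tested. Tests were exact permutation tests over 138600 partitions (F) and 1663200 labelings (slope) for H3K27ac and 945 and 2520 for KLF4, with Benjamini-Hochberg adjustment over all genes. Regions are merged stage consensus peaks, each overlapped by at least 2 libraries of the stage. A region's fold in a library is that of its highest peak there. Regions named are those within 1 kb of a start, all of a class where a locus has at most 3, and otherwise the 2 with the best mean rank. Pathway genes named are among those with a called slope, apart from Slc23a1, which was chosen after its values were seen. Some results of the pathway lists are not reported here by name. The members and lists were chosen with earlier results of these data known.

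Replicate lists shared at most 15 identical intervals. Alternatives were covered length, number of peaks, a flank of 2.5 kb, a q-value of at most 0.01, equal numbers of top peaks (17493 and 21129), labels permuted within batches, a replicate block, other overlaps, and leaving out each library. The exchange of day 6 numbers was added after seeing the data, because the peak names inside those 2 lists carry each other's numbers. The code (Python 3.11.15, numpy 2.4.6, numba 0.67.0) was tested on simulated data.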

Additional observations from a re-analysis of the deposited data

How the results depend on the processing

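No call of a member changed direction under any alternative tried. Of the 8 loci, the number that differed between stages by H3K27ac share was 7, and between 5 and 8 under 5 other measures and filters and with labels permuted within batches. It was 6 to 7 without each library in turn. The number with a rising slope, 4, was 2 by covered length and 1 by number of peaks, where the lists' own lengths enter. It was 2 in batch DG-3458 alone, and 3 to 5 without each library. Over all genes 4399 slopes were called, against 1699 by covered length, 2644 by number of peaks, 1755 with a flank of 2.5 kb, 1623 in batch DG-3458, and 2776 and 2842 without ESC replicate 1 and 2. By covered length Tet1 and Tet2 kept the rising slope, while adjusted p was 0.0605 for Dnmt3l and 0.281 for Uhrf1. By number of peaks Tet1 and Tet2 had 0.0665 and 0.0583, and Dnmt3a lost its difference between stages (0.233). With equal numbers of top peaks the slope of Tet3 passed the exact test (-25.8 ppm per stage, adjusted p = 0.0475). Dnmt1 differed between stages by covered length (0.000359) and with the q-value limit (0.0328). In batch DG-3458 the replicate numbers did not pair the samples, with correlations of deviations from the stage means between -0.03 and 0.07. With a replicate block there, 0 loci differed between stages and 0 had a called slope, at smallest possible unadjusted p-values of 0.0417 and 0.00174, where adjusted p was 0.0505 for the slopes of Tet1 and Tet2. With the day 6 numbers exchanged, both counts under the replicate block were again 0. No KLF4 alternative called a member, including 2i pooled with serum ESC, which called 1163 genes.

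In the region counts below, where the library left out was 1 of 2 of its stage, the other alone decided presence and absence there. Counts without a library are in part under this looser rule. The H3K27ac regions numbered 118 and 117 to 159 without each library, against 196 from any library, 46 from equal top peaks and 54 with a flank of 2.5 kb. Those in ESC and not MEF numbered 53 (33 with the q-value limit, 10 from top peaks, 22 with the short flank, 53 to 95 without a library), those in MEF and not ESC 15 (7 from top peaks, 15 to 26 without a library), and those in every library 17 (10, 10 and 7, and 17 to 20). The KLF4 regions numbered 66 (134 from any library, 38 with the short flank, 67 to 95 without a library). Kept ones numbered 11 (3 with the q-value limit, 4 with the short flank, 11 to 16 without a library), late ones 16 (7 with the short flank, 16 to 38 without a library), transient ones 7 (7 to 21 without a library), and those in every library 11 (1, 6 and 4, and 11 to 15). Genes with an H3K27ac peak at a start in every library numbered 5, against 3 with the q-value limit, 2 from top peaks and 5 to 6 without a library, and for KLF4 2, against 0, 1 and 2 to 4. The causes were not tested. Depth limits each absence of a peak.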
